A study of Homo sapiens with 6 samples.

Results

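BRA binding was examined at 8 genes of the presomitic mesoderm and its Notch-driven segmentation clock, TBX6, MSGN1, MESP1, MESP2, DLL1, DLL3, LFNG and HES7. A peak was taken as a member when its midpoint fell in the gene body or within 50 kb on either side, in hg19 coordinates. MESP1 and MESP2 lie side by side and share a window, so the 8 genes fall in 7 windows. These held 80 of the 54994 peaks in the 4 deposited lists, 23 in FLyA and 45 in FLyB with the R&D Systems antibody, and 1 in FLyA and 11 in FLyB with the Santa Cruz antibody.

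The libraries came from H9 cells, an established human embryonic stem cell line, differentiated for 36 h in a chemically defined medium that always held 20 ng/ml FGF2 and 10 μM LY294002, an inhibitor of PI3 kinase. FLyA medium also held 100 ng/ml activin A and was used to obtain endoderm progenitors. FLyB medium held 10 ng/ml BMP4 in its place and was used to obtain mesoderm progenitors. Chromatin bound by BRA was immunoprecipitated in each medium with an antibody from R&D Systems (AF2085) and with another from Santa Cruz (sc-20109), in 1 library each, and 2 input libraries were not analysed here. All cells were of this line, and peak lists hold no expression values, so the labelled cell types could not be checked against markers. The R&D Systems lists hold 25864 FLyA and 23687 FLyB peaks and the Santa Cruz lists 2436 and 3007. Each peak is an interval of 400 bp with no height or p-value, so depth is unknown and peaks could not be ranked. With 1 library per medium and antibody, no test between the media was run, and differences below are between these libraries. In such bulk libraries, binding in fewer cells and weaker binding per cell cannot be told apart.

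BRA (encoded by T) is a T-box transcription factor of the primitive streak and tailbud, where it is needed for posterior mesoderm to form. Some of the cells that leave the streak form the presomitic mesoderm, which is cut into somites in a rhythm set by cycling Notch signals. TBX6 and MSGN1 are transcription factors that commit cells to presomitic mesoderm. MESP2 acts as this tissue matures and segments, and MESP1 is the gene beside it. DLL1 is the Notch ligand of the tissue, and DLL3 is a divergent Notch ligand that acts inside the cell. LFNG is a glycosyltransferase that modifies Notch, and HES7 is the cycling repressor of the clock.

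Promoter sequences from RefSeq (GRCh38.p14) were matched for 5 of the 8 genes, in 6 entries of which LFNG has 2. The 250 bases before the gene start are shown for MSGN1, MESP2, HES7 and TBX6. Of the genes with an entry, MSGN1, HES7 and TBX6 had a peak within 1 kb of the outer edge where the gene starts. MESP2 is shown because the T-box letters searched occurred in it more than in the other entries. It is on the plus strand, so its start lies inside its window and not at the outer edge. Whether a peak lay at that start was not computed. Capitals mark T-box letters, GGTGTG or AGGTGTNA on either strand. They read as CACACC and TGACACCT where the match is on the opposite strand. The stretches lie at chr2:17816210-17816459 (plus strand), chr15:89776082-89776331 (plus strand), chr17:8124107-8124356 (minus strand) and chr16:30091925-30092174 (minus strand).
MSGN1: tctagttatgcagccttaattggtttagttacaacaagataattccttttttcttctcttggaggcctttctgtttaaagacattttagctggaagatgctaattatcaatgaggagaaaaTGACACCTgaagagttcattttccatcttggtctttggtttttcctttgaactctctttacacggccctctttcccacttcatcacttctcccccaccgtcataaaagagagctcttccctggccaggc
MESP2: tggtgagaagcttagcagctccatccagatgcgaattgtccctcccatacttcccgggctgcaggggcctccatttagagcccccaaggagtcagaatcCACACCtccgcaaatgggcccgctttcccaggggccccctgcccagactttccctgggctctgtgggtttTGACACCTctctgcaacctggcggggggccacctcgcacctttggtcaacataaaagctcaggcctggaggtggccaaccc
HES7: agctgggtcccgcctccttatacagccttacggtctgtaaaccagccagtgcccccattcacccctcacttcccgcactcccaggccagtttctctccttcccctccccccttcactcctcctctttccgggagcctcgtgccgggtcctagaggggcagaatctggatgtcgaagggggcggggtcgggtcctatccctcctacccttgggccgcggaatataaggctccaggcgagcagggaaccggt
TBX6: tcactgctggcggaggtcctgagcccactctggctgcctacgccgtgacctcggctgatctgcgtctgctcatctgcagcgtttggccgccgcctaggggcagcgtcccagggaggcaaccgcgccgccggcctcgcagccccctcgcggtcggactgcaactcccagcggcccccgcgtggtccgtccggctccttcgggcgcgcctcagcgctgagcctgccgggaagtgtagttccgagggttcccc

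The T-box consensus letters AGGTGTGA were in none of the 6 member entries and in 0.786% of all 35116 RefSeq promoters of that length. The shorter core GGTGTG was in 2 of the 6, 1 of the LFNG entries and MESP2, against 14.2% of all promoters. With any base allowed at position 7, AGGTGTNA, a form chosen after these promoters had been read, matched MSGN1 and MESP2 and 2.15% of all promoters. The match lay 129 to 122 bases before the MSGN1 start and 81 to 74 bases before the MESP2 start. In MESP2 the core lay further out, 151 to 146 bases before the start. The MSGN1 promoter also held GTGGGAA, the letters read by the Notch effector RBPJ, and CTTTGAA, those of the Wnt effectors TCF and LEF. These were in 5.43% and 3.80% of all promoters and in no other member entry. GGTGTG overlaps AGGTGTGA by construction, and all letters were searched on both strands. These are matches of letters, since the peaks are in hg19 and no genome of that build was used here.

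With the R&D Systems antibody all 7 windows held a peak in both media, and FLyB had 1.96 times as many as FLyA (45 against 23). Over the whole lists FLyB had 0.916 times as many as FLyA. FLyB had more peaks than FLyA in 6 of the 7 windows, and DLL3 was the exception. With 100 kb on each side LFNG turned as well, with 9 FLyA and 8 FLyB peaks, and 5 of the 7 had more in FLyB. Of 29412 tiles of 100 kb laid over the chromosomes, 48.9% held an R&D Systems FLyA peak and 41.6% an R&D Systems FLyB peak. Of the same tiles, 20.3% had more FLyB than FLyA peaks and 27.8% had more FLyA than FLyB peaks. Santa Cruz FLyB peaks fell in 4 of the 7 windows, TBX6, MSGN1, MESP1/MESP2 and HES7, while 8.71% of all tiles held one. A Santa Cruz FLyA peak fell only in the MESP1/MESP2 window, while 7.55% of all tiles held one. The windows are somewhat wider than a tile and lie around genes, whereas tiles also cover gene deserts.

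**Figure D1:**
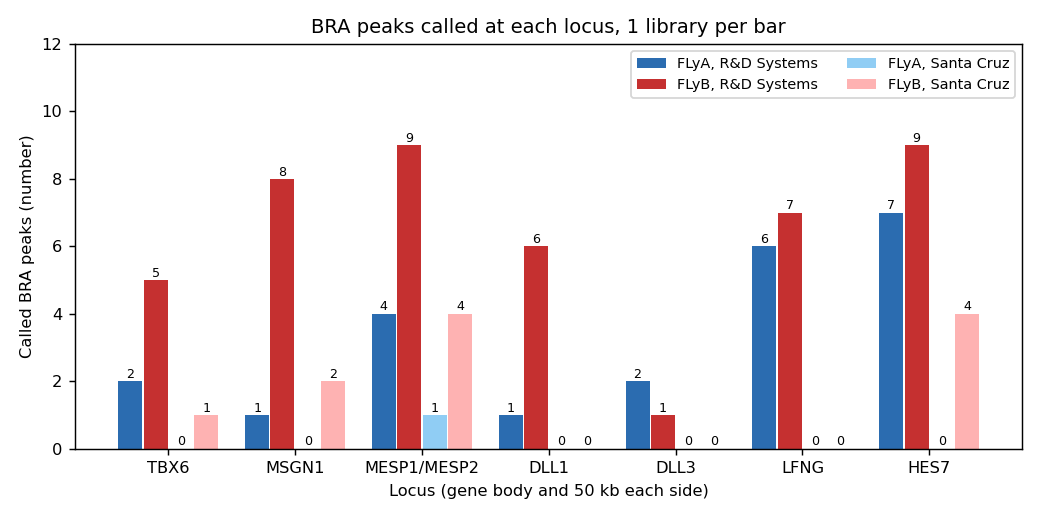
Number of BRA peaks called at each locus (gene body and 50 kb each side), with 1 bar per library. R&D Systems FLyB counts are above FLyA counts at every locus but DLL3, where FLyA had 2 peaks and FLyB 1, and Santa Cruz peaks are absent at DLL1, DLL3 and LFNG.

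The widest gap between the media was at MSGN1 (RefSeq gene 343930, chromosome 2, 17.998 Mb). R&D Systems FLyA had 1 peak there and FLyB 8, and Santa Cruz FLyA had 0 and FLyB 2. No FLyA peak overlapped a FLyB peak. The FLyB peak at the gene, chr2:17997367-17997766, was centred 0.4 kb before the gene start. It overlapped a Santa Cruz FLyB peak centred 0.5 kb before the start, and a further Santa Cruz FLyB peak, at chr2:17996595-17996994, was centred 1.2 kb before it with no R&D Systems peak on it. The nearest FLyA peak to the start was 25.7 kb upstream. That FLyA peak lay among 3 FLyB peaks centred 28.5, 27.7 and 24.0 kb upstream, the nearest of them 1646 bp away. The other FLyB peaks were 13.0 kb upstream and 5.2, 13.5 and 14.1 kb downstream of the start, a stretch in which FLyA had none. GEN1 and KCNS3 are the protein-coding neighbours of MSGN1 in RefSeq.

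At TBX6 (gene 6911, chromosome 16, 30.097 to 30.103 Mb) R&D Systems FLyA had 2 peaks and FLyB 5, and Santa Cruz FLyA had 0 and FLyB 1. Both FLyA peaks coincided with a FLyB peak. The shared peak near the 3′ end of the gene, 5.6 kb downstream of the start in FLyB, had midpoints 30 bp apart in the media and was also the Santa Cruz FLyB peak. The other shared peak lay 26.1 kb downstream of the start in FLyB, beyond the gene, with midpoints 54 bp apart. A peak inside the gene 0.2 kb from its start, chr16:30102593-30102992, was called in FLyB only and with the R&D Systems antibody only. The remaining FLyB peaks were 27.5 and 38.7 kb downstream of the start, and the first of them lay 1295 bp from the nearest FLyA peak. TBX6 lies between PPP4C and YPEL3, so peaks in this window may be nearer to other genes.

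The MESP1/MESP2 window (genes 55897 and 145873, chromosome 15, 90.293 to 90.322 Mb from the outer edge of MESP1 to that of MESP2) had 4 R&D Systems FLyA and 9 FLyB peaks, and 1 Santa Cruz FLyA and 4 FLyB peaks. All 4 FLyA peaks coincided with a FLyB peak, with midpoints 6, 8, 7 and 58 bp apart. The site at chr15:90291050-90291513, 1.7 kb outside the MESP1 edge, was the only one of the 53 merged sites at these genes that was called in all 4 lists. A shared peak lay 1.6 kb inside the MESP1 edge, and another 10.7 kb inside it, both with the R&D Systems antibody only. At the MESP2 side, the shared peak 2.6 kb inside the outer edge in FLyB was also called with the Santa Cruz antibody in FLyB. The 5 FLyB-only peaks lay 3.7 kb outside the MESP1 edge, 7.3, 8.8 and 17.7 kb inside it, and 5.0 kb beyond the MESP2 edge. The Santa Cruz antibody in FLyB also called those at 8.8 kb and beyond MESP2. MESP2 is on the plus strand, so the outer edge on its side is its 3′ end. The window gives only the outer edges of the pair, so the distance of these peaks from the starts of MESP1 and MESP2 was not computed.

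**Figure D2:**
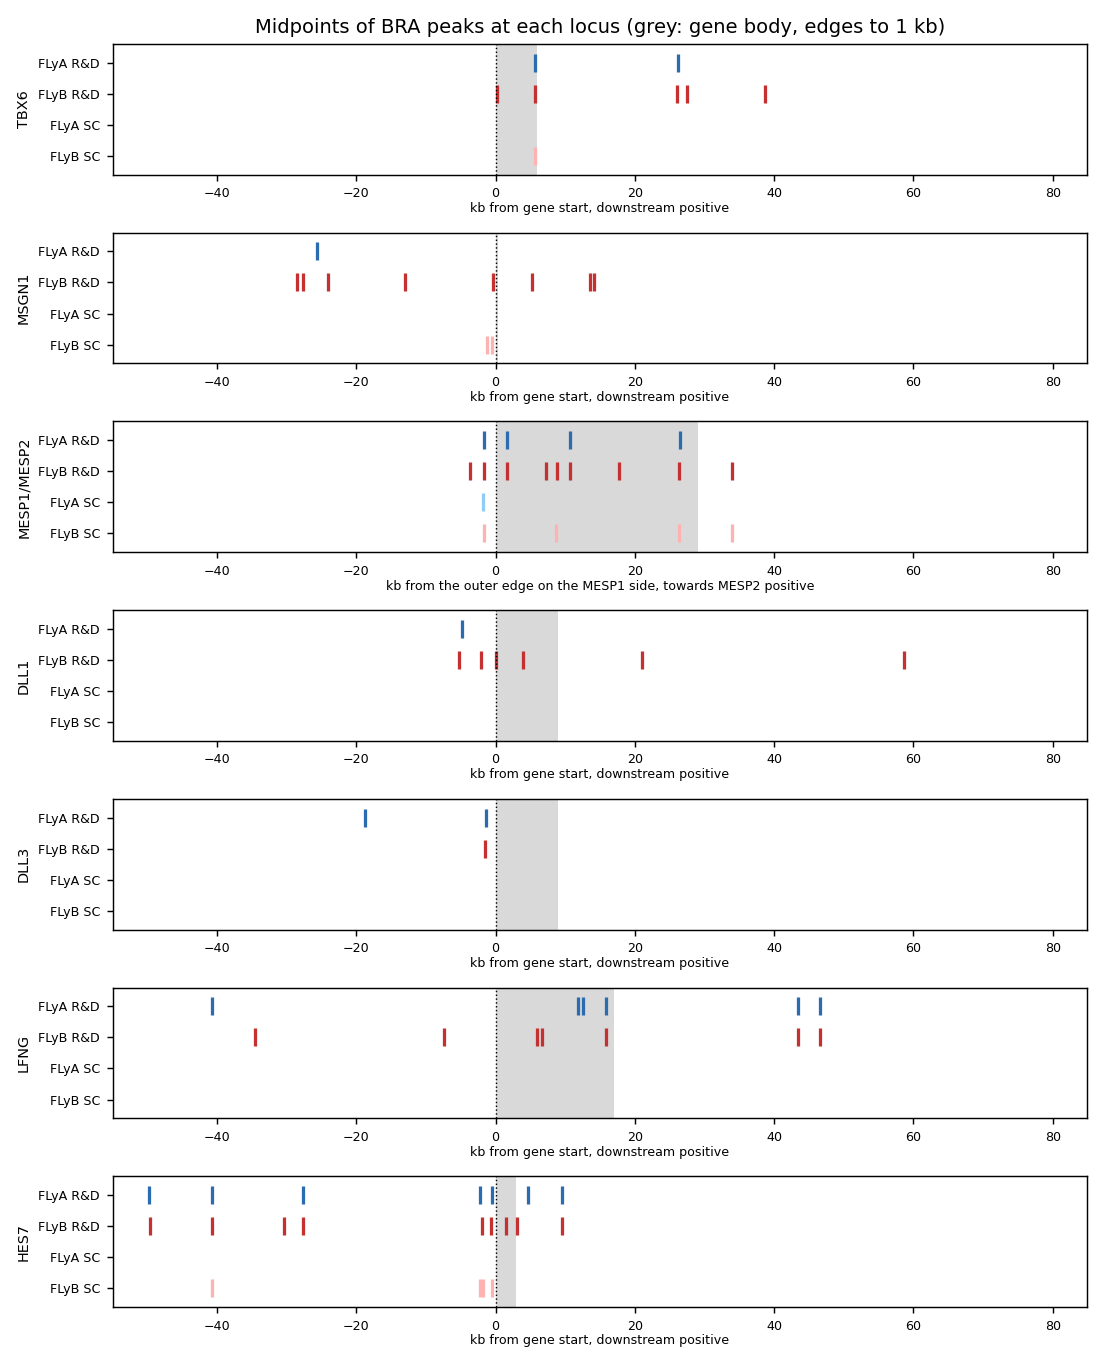
Midpoints of peaks (ticks) at each locus in the 4 lists (rows, SC for Santa Cruz), in kb from the gene start with downstream positive, or for MESP1/MESP2 from the outer edge on the MESP1 side, with gene bodies in grey. At MSGN1 the FLyB ticks run from 28.5 kb upstream to 14.1 kb downstream beside 1 FLyA tick, whereas at HES7 and MESP1/MESP2 most FLyA ticks stand over a FLyB tick.

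The Notch ligands differed from each other in these lists. At DLL1 (gene 28514, chromosome 6, 170.591 to 170.6 Mb) R&D Systems FLyA had 1 peak and FLyB 6, and the Santa Cruz antibody had 0 in both media. A FLyB-only peak, chr6:170599827-170600226, was centred on the gene start within the 1 kb to which the gene edges are known. Other FLyB-only peaks were 2.1 kb upstream and 3.9 kb downstream of the start, inside the gene, and 21.0 and 58.7 kb downstream, beyond it. The FLyA peak was 4.8 kb upstream, and the FLyB peak 5.2 kb upstream overlapped it by 45 bp. This pair counts as shared with any overlap and as separate where 200 bp are required. FLyB had 5 peaks at DLL1 that met no FLyA peak.

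DLL3 (gene 10683, chromosome 19, 39.99 to 39.999 Mb) had the fewest peaks of the 7 windows. R&D Systems FLyA had 2 and FLyB 1, and the Santa Cruz antibody had 0 in both media. The media shared a site just before the gene, 1.4 kb upstream of the start in FLyA and 1.5 kb in FLyB, with 103 bp between the midpoints. The other FLyA peak was 18.7 kb upstream, on the side of TIMM50, the neighbouring gene. FLyB had no peak of its own in this window.

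At LFNG (gene 3955, chromosome 7, 2.552 to 2.569 Mb) the numbers were close, 6 in FLyA and 7 in FLyB with the R&D Systems antibody and 0 in both media with the Santa Cruz antibody, while the places differed. Inside the gene FLyA had peaks 11.8, 12.6 and 15.9 kb from the start and FLyB 6.0, 6.7 and 15.9 kb from it. Only the last was shared, with midpoints 12 bp apart. Each medium thus had a close pair of peaks of its own within the gene, centred less than 1 kb apart, and the pairs were 5.1 kb from each other. The other shared sites lay 26.5 and 29.6 kb beyond the 3′ end in FLyA, on the side of BRAT1. The remaining FLyA-only peak was 40.7 kb upstream of the start, and the remaining FLyB-only peaks were 34.5 and 7.4 kb upstream. No peak of any list lay within 5 kb of this start, the outer edge of the gene. RefSeq gives LFNG 2 starts that are 5.3 kb apart, and the FLyB-only pair at 6.0 and 6.7 kb is close to the inner one, whose position in hg19 was not used here.

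HES7 (gene 84667, chromosome 17, 8.024 to 8.027 Mb) had 7 R&D Systems FLyA and 9 FLyB peaks, 0 Santa Cruz FLyA and 4 FLyB peaks. The peak at the start, chr17:8027299-8027698 in FLyA and chr17:8027364-8027763 in FLyB, was centred 0.5 and 0.6 kb upstream and was also called with the Santa Cruz antibody in FLyB. A little further upstream FLyA had a peak at 2.3 kb and FLyB at 1.9 kb. Their midpoints were 404 bp apart, so they did not overlap, and the Santa Cruz FLyB list held a peak on each. The FLyA-only call at 2.3 kb was therefore also made in FLyB with the Santa Cruz antibody. FLyB-only peaks lay 1.5 kb and 3.1 kb downstream of the start, at the gene, and FLyA had a peak of its own 4.6 kb downstream. Sites 9.5 kb downstream and 27.6, 40.7 and 49.8 kb upstream (FLyA distances) were shared, that at 40.7 kb also with the Santa Cruz FLyB list. A further FLyB-only peak was 30.4 kb upstream. Upstream of HES7 lies PER1, a gene of the circadian clock, so the far upstream peaks may be nearer to that gene.

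Over the 7 windows, 16 of the 23 R&D Systems FLyA peaks overlapped a FLyB peak and 7 were FLyA only, a share of 30.4% (95% interval 13.2 to 52.9%). In the whole FLyA list 67.0% of peaks were FLyA only. Of the 45 FLyB peaks, 29 were FLyB only, a share of 64.4% (48.8 to 78.1%), near the 63.9% of the whole FLyB list. The larger part of the FLyA peaks in these windows was thus at sites also called in FLyB, though with 100 kb on each side the FLyA-only share was 48.7%, while the FLyB-only share was close to the background. The windows hold more FLyB than FLyA peaks, and how far this number alone sets the low FLyA-only share was not tested. The intervals are exact (Clopper-Pearson), take each peak as a separate draw and hold no variation between experiments. Among shared pairs the distance between midpoints had a median of 34.0 bp, from 3 to 355 bp, and 9 of the 16 were within 50 bp. FLyA-only peaks were at MSGN1 (1), DLL3 (1), LFNG (3) and HES7 (2). FLyB-only peaks were most numerous at MSGN1 (8), MESP1/MESP2 (5) and DLL1 (5).

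Peaks of the media that did not overlap often lay near each other. A FLyA peak was within 10 kb of 20 of the 29 FLyB-only peaks (69.0%, 49.2 to 84.7%), against 31.1% of the FLyB-only peaks of the whole list. A FLyB peak was within that distance of 6 of the 7 FLyA-only peaks (85.7%, 42.1 to 99.6%), against 23.7% of the FLyA-only peaks of the whole list. The exception was the distal FLyA peak at DLL3, 17.2 kb from the nearest FLyB peak. Within 1 kb of another peak of its own list lay 6 of the 45 FLyB peaks, against 9.55% of the list, and 2 of the 23 FLyA peaks, against 6.06%. These close pairs were at MSGN1 and LFNG. The windows are denser in peaks than the whole lists, 3.38 times in FLyA and 7.23 times in FLyB. How far this density alone sets the closeness of peaks was not tested.

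The Santa Cruz antibody in FLyB called 9 of the 45 R&D Systems FLyB peaks (20.0%, 9.58 to 34.6%), and in the whole list 10.0% were called with both. They were at MESP1/MESP2 (4), HES7 (3), TBX6 (1) and MSGN1 (1). Counted from the other side, 9 of the 11 Santa Cruz FLyB peaks lay on an R&D Systems FLyB peak, against 79.0% of that list. Those without one were the upstream peak at MSGN1 and the peak 2.3 kb upstream of HES7. In FLyA, 1 of the 23 R&D Systems peaks was also called with the Santa Cruz antibody (3.02% of the whole list), and the 1 Santa Cruz FLyA peak of these windows lay on it (31.9% of that list). Of the 9 FLyB peaks called with both antibodies, 4 were FLyB only in the R&D Systems lists. They lay at the start of MSGN1, between MESP1 and MESP2, beyond MESP2 and 1.9 kb upstream of HES7. The share of FLyB-only peaks among all those called with both antibodies was not computed, so no background stands beside this number.

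**Figure D3:**
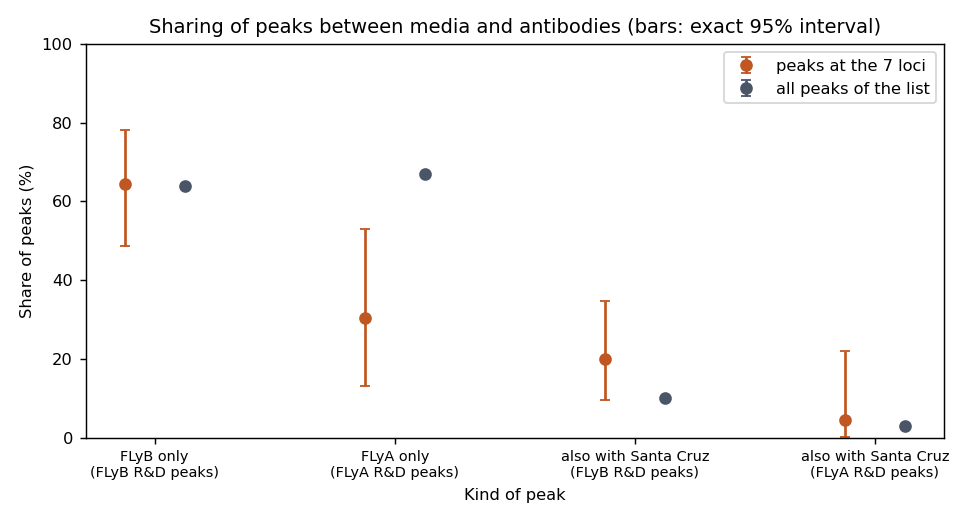
Share of R&D Systems peaks called in a single medium or also with the Santa Cruz antibody, as points with exact 95% intervals, for peaks at the 7 loci and for all peaks of the list. The FLyA-only share at the loci, 30.4%, stands below the 67.0% of the list, while the FLyB-only shares, 64.4% and 63.9%, are close.

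Peaks gathered at the genes themselves. With the R&D Systems antibody 13 FLyB and 7 FLyA peaks were inside a gene body (for MESP1/MESP2, between the outer edges of the pair). The MESP1/MESP2 span, which includes sequence between the genes, held 6 of these FLyB and 3 of these FLyA peaks. MSGN1, whose edges coincide at the 1 kb precision, could hold none. A further 10 FLyB and 6 FLyA peaks were outside but within 5 kb. Relative to the density of the whole list, the density inside the bodies was 22.1 times as high in FLyB and 10.9 times in FLyA. From 5 to 20 kb it was 4.73 times in FLyB (8 peaks) and 1.08 times in FLyA (2 peaks). From 50 to 100 kb, outside the windows, FLyA had 16 peaks and FLyB 11, and from 100 to 200 kb the ratios were 1.14 in FLyA and 1.15 in FLyB. The excess of FLyB over FLyA peaks was thus seen within 50 kb of the bodies. In the 6 windows with a single gene, 10 FLyB and 5 FLyA peaks were within 5 kb of a gene start. Over all windows the density was 58.2 peaks per Mb in FLyB and 29.8 in FLyA, which is 7.23 and 3.38 times that of the list. Promoters and genes as a whole were not used as a background here, so these ratios are against all sequence between the outermost peaks.

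**Figure D4:**
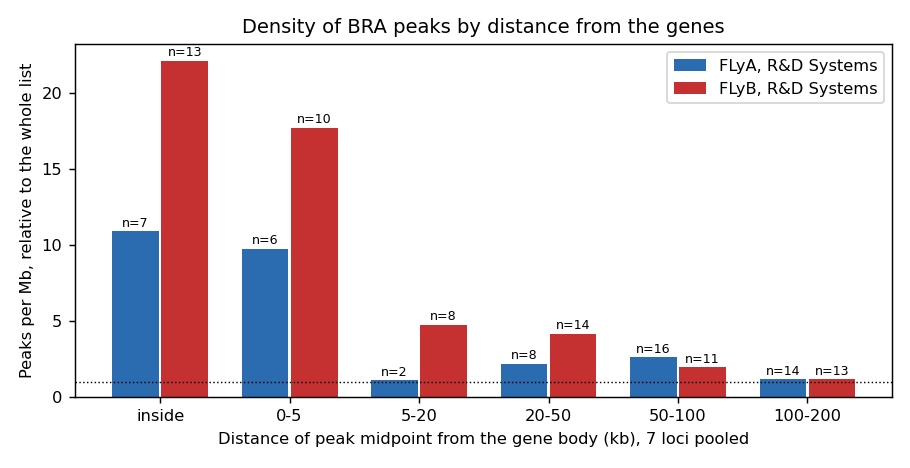
Density of R&D Systems peaks in rings around the 7 loci, divided by the density of the whole list, with the number of peaks above each bar and a dotted line at 1. FLyB bars fall from 22.1 inside the gene bodies to 1.15 at 100 to 200 kb, and FLyA bars exceed FLyB bars only from 50 to 100 kb. The bodies include all sequence between the outer edges of MESP1 and MESP2.

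Single windows were set against all 29412 tiles by counting the peaks in 100 kb centred on each locus. The tiles lie on a fixed grid and are centred on no gene, which can favour the loci. The genes were also chosen with earlier results of these data known, so the percentages only describe the loci. FLyB had 9 peaks at MESP1/MESP2, a number reached by 0.258% of tiles, 8 at MSGN1 and 8 at HES7, reached by 0.473%, and 7 at LFNG, reached by 0.796%. It had 5 at TBX6 and 5 at DLL1, reached by 2.54% of tiles, and 1 at DLL3, reached by 41.6%. FLyA had 6 at LFNG and 6 at HES7, reached by 0.826%, and 4 at MESP1/MESP2, reached by 4.18%. TBX6 and DLL3, with 2 FLyA peaks, were matched by 21.8% of tiles, and MSGN1 and DLL1, with 1, by 48.9%. Thus 6 loci in FLyB and 3 in FLyA had a number of peaks that fewer than 5% of tiles reached. LFNG, HES7 and MESP1/MESP2 were among them in both media, and MSGN1, TBX6 and DLL1 in FLyB. With tiles of 50 kb the numbers of loci were again 6 and 3. With tiles of 200 kb they were 5 in FLyB and 2 in FLyA. At that width 5.62% of tiles reached DLL1 in FLyB and 8.41% reached MESP1/MESP2 in FLyA.

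**Figure D5:**
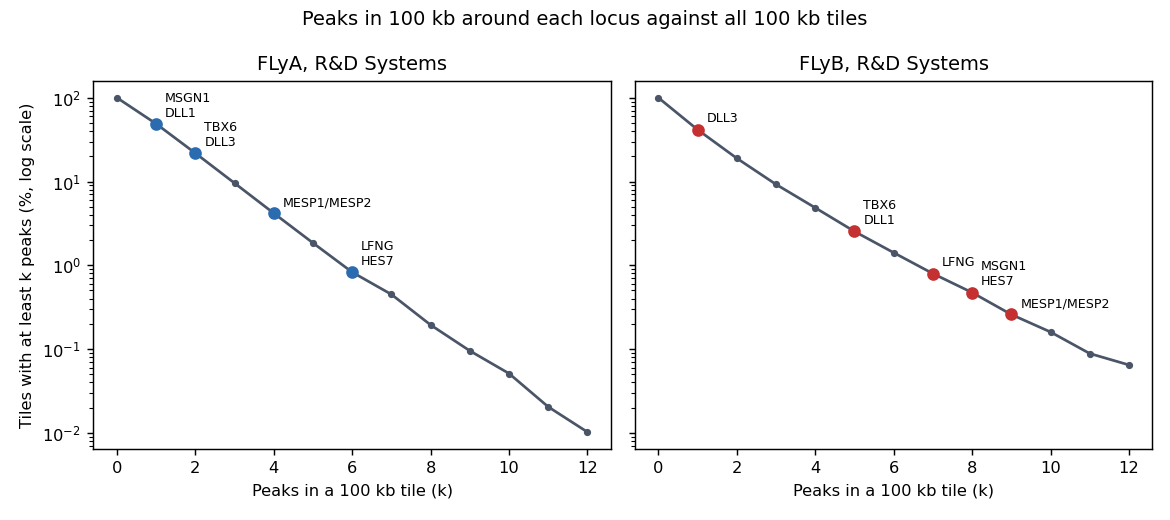
Percentage of all 100 kb tiles (log scale) with at least k R&D Systems peaks, for FLyA (left) and FLyB (right), with the loci marked at their own number of peaks. MSGN1 stands at 48.9% of tiles in FLyA and 0.473% in FLyB, and DLL3 at 21.8% and 41.6%.

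The edge of the windows at 50 kb divides a few peaks. Just inside it lay the HES7 peaks 49.8 kb (FLyA) and 49.7 kb (FLyB) from the gene and a DLL1 FLyB peak 49.7 kb away. Just outside lay a FLyA peak 50.9 kb from HES7, a FLyB peak 53.8 kb from DLL3 and a FLyA peak 54.0 kb from DLL1. A site 57.8 kb beyond MESP2, outside the window, was called in FLyA and FLyB with the R&D Systems antibody and in FLyB with the Santa Cruz antibody.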

How the data were processed

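The authors made BRA ChIP-seq libraries, sequenced them on a Genome Analyzer II and called peaks with MACS. The submitters' processing notes name Bowtie 0.12.7 and hg19. The authors deposited 1 list per library with the chromosome, start and end of each peak and no other value. A MACS threshold of 1e-12 stands in both Santa Cruz track lines. For the R&D Systems lists no threshold is given in the sources used here. The paper normalises fold enrichment to input, and the control of each list is not named. Read depth is not given as a number, so no value per peak and no precision from depth can be given. The paper reports only that the Santa Cruz experiments gave fewer unique reads and a lower signal-to-noise ratio than the R&D Systems experiments.

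Windows were taken as gene bodies with 50 kb on each side, with edges known to 1 kb. Members, windows and gene lists were chosen with earlier results of these data known. All 8 genes are reported, whatever their counts. Gene strands came from the RefSeq promoter table or, for MESP1, DLL1 and DLL3, from general knowledge. Peaks overlapping by at least 1 bp counted as shared. Positions are counted from 1. Overlaps were computed in Python 3.11.15 (NumPy 2.4.6, SciPy 1.17.1), tested on simulated data and checked with bedtools 2.31.1, and figures were drawn with matplotlib 3.10.9. Tiles of 100 kb ran from the first to the last peak of each chromosome. With 1 library per medium and antibody no test was run. RefSeq tables are of GRCh38.p14, so they served for names, neighbours and promoter sequence only. The planned counts at other Notch and somite genes, the search for genes with a like pattern and the search of peak sequence need an hg19 annotation or genome and were not run. Alternatives covered the overlap, flank, antibody, locus, distance and tile width.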

Additional observations from a re-analysis of the deposited data

How the results depend on the processing

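Of the values compared, the difference between the media at LFNG reversed, from 1 more FLyB peak to an FLyB minus FLyA difference of -1 (9 FLyA and 8 FLyB peaks), with a flank of 100 kb. A share or ratio was taken to have moved if it fell outside the exact 95% interval of the main value, and a count if it differed by more than 1.5 times. By these rules 143 of 175 alternatives, over the values for all windows and for each locus, did not move. Some of these had no room to move. Merging overlapping peaks of a list changed no count, and at several loci a Santa Cruz list held no peak with any flank. The number is therefore no measure of how firm the results are.

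The flank mattered most. With 20 kb the windows held 15 FLyA and 31 FLyB R&D Systems peaks and the FLyB density was 10.9 times that of the list. With 100 kb they held 39 FLyA and 56 FLyB peaks and the FLyB density was 4.72 times that of the list. At MSGN1 no FLyA peak remained within 20 kb, and 4 were within 100 kb. At DLL3, FLyA had 6 peaks and FLyB 4 within 100 kb. The FLyA-only share was 33.3% with 20 kb and 48.7% with 100 kb.

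The antibody moved the shares found in a single medium. With Santa Cruz lists on both sides, 90.9% of the 11 FLyB peaks and 0% of the 1 FLyA peak had no partner in the other medium. Most peaks of the whole Santa Cruz FLyB list also overlapped no Santa Cruz FLyA peak. A high FLyB-only share with this antibody is therefore not particular to these windows. Among peaks found with both antibodies the shares were 44.4% of 9 in FLyB and 0% of 1 in FLyA. The same shares over the whole lists were not computed, so these values are not read as a trait of the windows. The cause was not tested. Without MESP1/MESP2, for which no start was used, 14 FLyB and 9 FLyA peaks were within 5 kb of a body (an alternative added after the data were seen), and 10 and 5 were within 5 kb of a gene start. AGGTGTNA, added after the data were seen, matched 2 of 6 promoters, where AGGTGTGA matched 0. Without any 1 window the FLyA-only share ran from 23.5 to 36.8% and the FLyB-only share from 56.8 to 69.4%.

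Paired by antibody, FLyB had more peaks than FLyA in both pairs, 45 against 23 and 11 against 1. No p-value was computed, as 2 pairs cannot give an exact two-sided p below 0.5. The stricter score and the width of the peak sequence searched could not be tried, as the lists hold no score and no hg19 genome was used here. Depth is unknown, so absence from a list is no measure of absent binding.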
